A study of Rattus norvegicus with 6 samples.

Results

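Transcripts of 8 genes that make, remodel or move cardiolipin were followed in rat heart after repeated doxorubicin: Tamm41, Cds2, Pgs1, Ptpmt1, Crls1, Taz, Lclat1 and Plscr3. The genes were taken by symbol from a table of read counts for 17487 gene symbols, as the pathway around a lipid to which the drug binds in mitochondria. Only 5 of the 8 could be compared. Tamm41, Cds2, Ptpmt1, Crls1 and Plscr3 each stood on 1 row with counts in every library, Taz was listed at 0 in all libraries, and counts of Pgs1 and Lclat1 were not analysed here.

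The hearts came from 6 adult male Wistar rats, an outbred laboratory strain. Doxorubicin hydrochloride, an anthracycline used in chemotherapy, was injected into the tail vein of 3 rats at 3.75 mg/kg once a week for 4 weeks. The other 3 rats, called control below, had 0.9% sodium chloride by the same route and schedule. Each rat gave 1 library of heart RNA, and the labels do not give the chamber sampled, the animals' age beyond adult, or the time from the last injection to collection.

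Cardiolipin is a phospholipid with 4 acyl chains that is found almost entirely in the inner mitochondrial membrane, where it holds respiratory complexes and cristae in place. Its synthesis starts when phosphatidic acid is activated to CDP-diacylglycerol by Tamm41 inside mitochondria, a reaction that Cds2 carries out in the endoplasmic reticulum. Pgs1 then makes phosphatidylglycerol phosphate, Ptpmt1 removes its phosphate, and Crls1, cardiolipin synthase, joins phosphatidylglycerol to a further CDP-diacylglycerol. New cardiolipin is then remodelled, with tafazzin (Taz) exchanging acyl chains and Lclat1 adding them to lysocardiolipin, while the scramblase Plscr3 moves it between the mitochondrial membranes. Loss of tafazzin in people causes Barth syndrome, a disease of heart and skeletal muscle. Heart cells are rich in mitochondria, and anthracyclines bind cardiolipin through its negative charge.

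Stretches upstream of 2 of the compared genes show what their starts look like, since Crls1 and Cds2, the enzyme of the last step and the synthase outside mitochondria, had the most negative Pearson's r of any pair across the libraries. Both are from RefSeq's GRCr8 assembly, on the plus strand and ending before the annotated gene; the counts themselves were made on another build, mRatBN7.2, per the submitters' processing notes. The Crls1 stretch is chr3:140572485-140572679, with capitals marking an E-box, CACGTG. The Cds2 stretch is chr3:139967620-139967869, with capitals marking a match to the motif of the nuclear respiratory factor NRF1, searched as GCGC, any 2 bases and GCGC.
Crls1: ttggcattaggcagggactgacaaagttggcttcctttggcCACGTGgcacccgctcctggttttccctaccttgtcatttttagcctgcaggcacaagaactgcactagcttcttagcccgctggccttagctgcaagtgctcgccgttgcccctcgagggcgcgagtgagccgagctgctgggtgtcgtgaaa
Cds2: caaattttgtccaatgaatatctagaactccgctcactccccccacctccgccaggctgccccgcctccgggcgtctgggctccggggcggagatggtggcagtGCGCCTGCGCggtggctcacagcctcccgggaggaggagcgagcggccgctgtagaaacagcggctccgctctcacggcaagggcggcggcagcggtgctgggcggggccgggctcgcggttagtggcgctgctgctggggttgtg

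The 2 stretches differ in composition, with 57.9% G and C upstream of Crls1 and 70.0% upstream of Cds2. The Cds2 stretch, of 250 bases, holds 3 GC boxes (GGGCGG on either strand), and the shorter Crls1 stretch, of 195 bases, holds 0. RefSeq's table gave a promoter for 7 of the 8 genes, all but Tamm41. The first 250 bases of each promoter were searched on both strands, and a gene counted if any of its promoters matched. For Crls1, 195 of the 250 bases lie before the annotated gene. The NRF1-type motif was found for Pgs1 and Cds2 and in 5.5% of all 27457 genes with a promoter. The E-box was found for Crls1 and in 6.18% of all genes, and the GC box for Taz, Pgs1, Lclat1, Plscr3 and Cds2 and in 33.5%. The ETS core CCGGAAG was found for Taz and Pgs1 and in 8.11%. The capitals in both stretches overlap 0 matches of the other motifs. These matches describe letters and were not tested as binding sites.

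The libraries held 2219685 to 3508282 counts, and 9205 symbols passed the filter on low counts and were tested. Control library 1 stood apart on the first principal component, at -43.3 against -4.83 to 26.6 for the other libraries. Its summed level of 4 hemoglobin genes was 7132 CPM (counts scaled to a common library total) against 649 to 2591 CPM in the others. The sum of the atrial markers did not single it out, while Myl7 did. Of the 3 tested, the myosin light chain Myl7 was at 164 CPM in control library 1 against 2.06 to 6.42 in the others. Myl4, another myosin light chain, was also highest there (68.4 CPM against 5.30 to 26.0). Nppa was highest in doxorubicin library 1, at 3252 CPM against 444.5 in control library 1, and made up most of the highest sum. The sums ran from 170.1 to 676.6 CPM (control) and from 287.1 to 3284 CPM (doxorubicin). Another atrial marker, Sln, did not pass the filter. Its raw counts were 60 for control library 1, 59 for control library 3 and 0 to 6 elsewhere. Whether control library 1 held more atrial tissue was not tested. The level of cardiomyocyte markers was high in all libraries. Their 7 tested genes summed to 98330 to 106700 CPM (control) and 82170 to 92550 CPM (doxorubicin), without overlap. Of the 7, 6 were lower in doxorubicin, against 47.9% of all symbols. Myh6 had the lowest log2 fold change, -0.73, with means of 24590 (control) and 14820 CPM (doxorubicin) and overlapping groups. Tnnt2 (17640 and 16350 CPM) and Actc1 (25000 and 22690 CPM) differed less. Of 8 macrophage markers, 7 were higher in doxorubicin, against 4798 of all 9205 symbols, and Adgre1 was lower. Their sums were 125.6 to 147.9 CPM (control) and 153.9 to 235.3 CPM (doxorubicin). In edgeR's quasi-likelihood test 0 of the 8 passed an adjusted p of 0.05, against 0.0543% of all symbols. At an unadjusted p under 0.05 there were 2, against 8.1%. Only 1 of the 8 had groups that did not overlap, against 13.4%. The part of these differences in the results on cardiolipin genes was not tested. In whole tissue, fewer cells of a type and less RNA per cell cannot be told apart.

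No difference between doxorubicin and control hearts beyond the spread between animals was detected for any of the 5 cardiolipin genes. With edgeR's quasi-likelihood test and Benjamini-Hochberg adjustment over all tested symbols, 0 of 5 passed an adjusted p of 0.05, against 0.0543% of all symbols. At an unadjusted p under 0.05 there were also 0 of 5, against 8.1% of all symbols, and DESeq2 also called 0 with 0 at that unadjusted level. The groups overlapped for each of the 5, while 13.4% of all symbols had groups that did not overlap. The log2 fold change was below 0 for 4 of the 5, against 47.9% of all symbols, and the median of the 5 was -0.11 against 0.017 for all symbols. An adjusted p above the threshold does not show that levels are equal, so the 95% interval of each difference is given below.

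Tamm41, the mitochondrial CDP-diacylglycerol synthase, had the lowest unadjusted p of the 5. Control hearts 1, 2 and 3 had 16.8, 14.2 and 8.80 CPM, and doxorubicin hearts 1, 2 and 3 had 8.02, 9.36 and 7.96 CPM. Control libraries 1 and 2 were above all doxorubicin libraries, and control library 3 lay among them. The group means were 13.3 ± 4.08 and 8.45 ± 0.791 CPM (SD, n = 3). The log2 fold change was -0.64 (SE 0.34; 95% interval -1.36 to 0.08), with an unadjusted p of 0.0790 and an adjusted p of 0.666 in edgeR's quasi-likelihood test. The interval spans 0.391 to 1.06 times the control level. Tamm41 also had the fewest reads of the 5, 25 to 44 counts per library, where counting error alone gives a coefficient of variation of 17.8%. The observed coefficient of variation, which includes counting error, was 30.8% in control and 9.37% in doxorubicin. The doxorubicin value lies below counting error, so nothing is read from it.

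Cds2 makes the same activated lipid outside mitochondria, mainly for phosphatidylinositol. Control hearts 1, 2 and 3 had 14.5, 21.3 and 19.0 CPM of it, and doxorubicin hearts 1, 2 and 3 had 19.6, 9.67 and 30.1 CPM. The doxorubicin hearts held both the lowest and the highest value, and the control hearts lay between. The means were 18.3 ± 3.47 (control) and 19.8 ± 10.2 CPM (doxorubicin; SD, n = 3). Its log2 fold change was 0.12 (SE 0.35; 95% interval -0.64 to 0.88) with an adjusted p of 0.957 in edgeR's test. The coefficient of variation among doxorubicin hearts was 51.6%, the widest of the 5 genes in either group, against 13.2% from counting error at its 31 to 102 counts per library.

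The balance of the 2 synthases does not depend on how libraries are scaled. Tamm41 took 53.7%, 40.0% and 31.6% of the summed Tamm41 and Cds2 counts in control libraries 1, 2 and 3 (Wilson 95% intervals 42.9 to 64.0, 30.0 to 51.0 and 23.3 to 41.4). The share in doxorubicin hearts 1, 2 and 3 was 29.1%, 49.2% and 20.9% (20.5 to 39.4, 37.1 to 61.4 and 14.8 to 28.7). The groups overlapped, with means of 41.8% ± 11.1 and 33.1% ± 14.5 (SD, n = 3). The intervals cover counting error only.

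Ptpmt1, the phosphatase that yields phosphatidylglycerol, was at 37.0, 28.0 and 17.9 CPM in control libraries 1, 2 and 3. Doxorubicin hearts 1, 2 and 3 had 14.1, 27.8 and 24.5 CPM. Control library 1 was the highest and doxorubicin library 1 the lowest, and the other 4 libraries were mixed. The means were 27.6 ± 9.58 and 22.1 ± 7.12 CPM (SD, n = 3). The difference on the log2 scale was -0.31 (SE 0.31; 95% interval -0.98 to 0.36) with an adjusted p of 0.835 in edgeR's test.

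Crls1, cardiolipin synthase, was at 38.2, 34.2 and 33.8 CPM in control hearts 1, 2 and 3, the narrowest spread of the 5 genes among control hearts. The coefficient of variation of these 3 values was 6.85%, below the 9.74% from counting error, so nothing is read from that narrow spread. Doxorubicin hearts 1, 2 and 3 had 30.2, 44.9 and 28.9 CPM. Doxorubicin library 2 was above all control libraries and the other 2 doxorubicin libraries were below them. The means were 35.4 ± 2.42 and 34.7 ± 8.92 CPM (SD, n = 3). The difference on the log2 scale was -0.03 (SE 0.23; 95% interval -0.52 to 0.46) with an adjusted p of 0.985 in edgeR's test. The interval spans 0.696 to 1.38 times the control level.

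Plscr3, the mitochondrial scramblase, was at 76.0, 48.9 and 54.5 CPM in control libraries 1, 2 and 3 and at 51.7, 64.3 and 50.1 CPM in doxorubicin libraries 1, 2 and 3. Control library 1 was again the highest, and the other 5 libraries were mixed. The means were 59.8 ± 14.3 and 55.4 ± 7.77 CPM (SD, n = 3). The difference on the log2 scale was -0.11 (SE 0.22; 95% interval -0.58 to 0.35) with an adjusted p of 0.918 in edgeR's test. It had the most reads of the 5, 110 to 206 counts per library, and the narrowest interval. Transcript lengths were not used here, so levels are not ranked between genes.

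**Figure D1:**
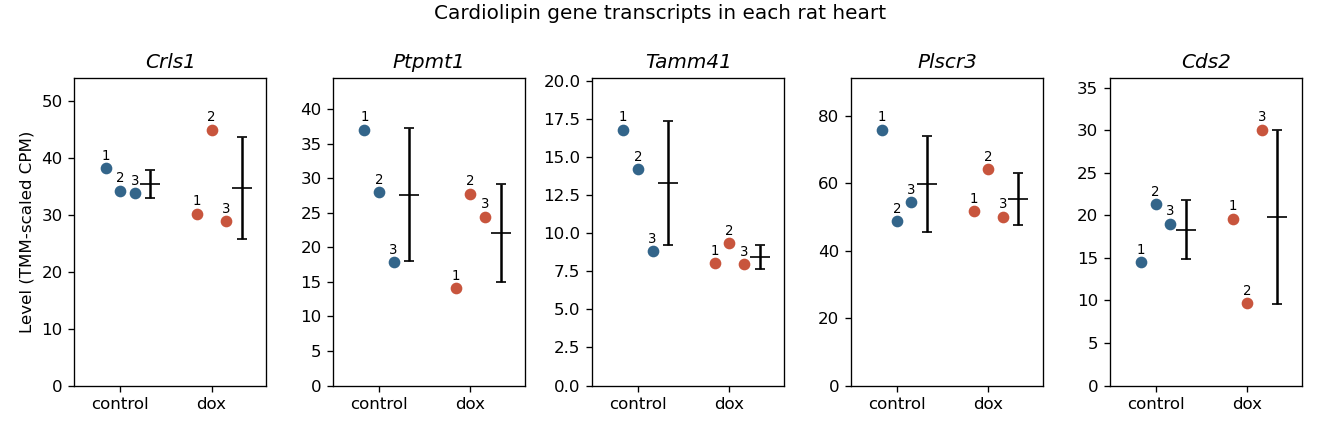
Level of each compared cardiolipin gene in CPM (y axis, linear from 0) in control (blue) and doxorubicin (red) hearts; points are libraries with their replicate number, and black marks are the mean with SD (n = 3). The groups overlap for all 5 genes, and Tamm41 has control libraries 1 and 2 above the 3 doxorubicin libraries.

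**Figure D2:**
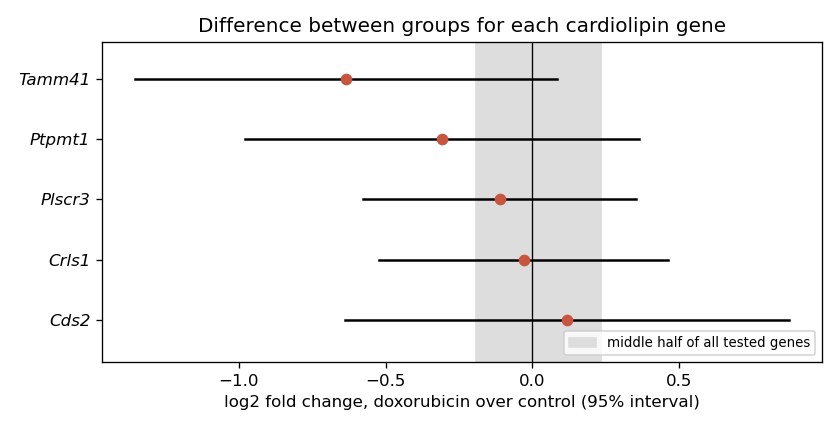
Log2 fold change of doxorubicin over control (x axis) for each gene, with its 95% interval as a line; the gray band runs from the lower to the upper quartile of all tested symbols, -0.19 to 0.23. All 5 intervals contain 0, and the Tamm41 interval reaches from -1.36 to 0.08.

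Control library 1, which stood apart as described above, held the highest level of Tamm41, Ptpmt1 and Plscr3. Without it the log2 fold change was -0.42 for Tamm41, -0.028 for Ptpmt1 and 0.10 for Plscr3, so that the sign turned for Plscr3. The sign also turned for Crls1 (0.032) and Cds2 (-0.015). In that fit 0 of 5 genes had an unadjusted p under 0.05 by edgeR, and 0 passed after adjustment. For Cds2 the value was 0.45 without doxorubicin library 2 and -0.31 without doxorubicin library 3, which held its extremes. For Crls1 the value was -0.25 without doxorubicin library 2, 0.065 without library 1 and 0.096 without library 3. Tamm41 was below 0 in each of the 6 fits, from -0.88 without control library 3, where edgeR gave an unadjusted p of 0.0297 and an adjusted p of 0.700 (0.574 to 0.999 over all 16 alternatives), to -0.42 without control library 1.

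**Figure D3:**
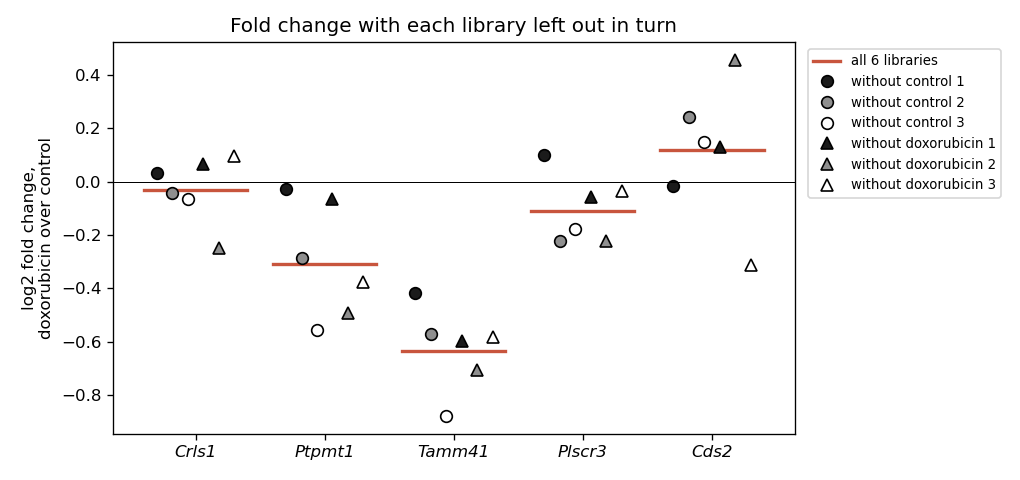
Log2 fold change of doxorubicin over control (y axis) for each gene when 1 library is left out; circles leave out a control and triangles a doxorubicin library, and red lines are the value with all 6 libraries. Tamm41 lies between -0.88 and -0.42, Ptpmt1 stays below 0, and Crls1, Plscr3 and Cds2 have points on both sides of 0.

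The zeros of Taz cannot be read as a level of tafazzin transcripts. Taz is X-linked, and of 518 protein-coding symbols of the table placed on the X chromosome by RefSeq's GRCr8 gene list, 516 were listed at 0 in every library, 99.6%. On the autosomes the share was 20.2% of 16004. The X-linked zeros included Dnase1l1, Atp6ap1 and Fam50a, which lie near Taz, and genes in common use such as Hprt1, an enzyme of purine salvage, and Smpx, a muscle protein. The exceptions were Rpl39, with 1 count in all, and Il13ra1, with 11 to 52 counts per library. No fold or upper limit is given for Taz. Of the genes discussed below, Apoo and Apool, subunits of the cristae complex MICOS, are X-linked too and were listed at 0. The X-linked genes named here were chosen after their values were seen, and the cause was not tested.

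The levels of the 5 genes did not run in parallel across the 6 libraries. Over the 10 pairs, Pearson's r of log2 CPM ran from -0.94 to 0.77. By Pearson's r the strongest relation was between Crls1 and Cds2, with r = -0.94 (exact permutation p = 0.00694, adjusted over the 10 pairs 0.0694) and Spearman's rho = -0.83 (exact permutation p = 0.0583, adjusted 0.146; n = 6). By rank it was between Plscr3 and Cds2, with rho = -0.89 (exact permutation p = 0.0333, adjusted 0.146) and r = -0.72 (exact permutation p = 0.110, adjusted 0.281; n = 6); without control library 1 and doxorubicin library 2, the farthest from the median of Plscr3, r was -0.52. Doxorubicin library 2 had the highest Crls1 and the lowest Cds2, and doxorubicin library 3 the reverse. Without these 2 libraries, the farthest from the median of Crls1, r of Crls1 and Cds2 over the other 4 was -0.71. No pair passed the threshold of 0.05 after adjustment. Cds2 had a negative r with each of the other 4 genes, and the other 6 pairs had a positive r. In each group the library with the highest Crls1 had the lowest Cds2, and no r is given for 3 libraries. The libraries share depth and scaling between genes, so the counts were also set against each other directly. Crls1 took 72.5%, 61.6% and 64.0% of the summed Crls1 and Cds2 counts in control libraries 1, 2 and 3. The share in doxorubicin hearts 1, 2 and 3 was 60.6%, 82.3% and 49.0% (Wilson 95% intervals 52.8 to 68.0, 76.0 to 87.2 and 42.2 to 55.9, for counting error only).

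**Figure D4:**
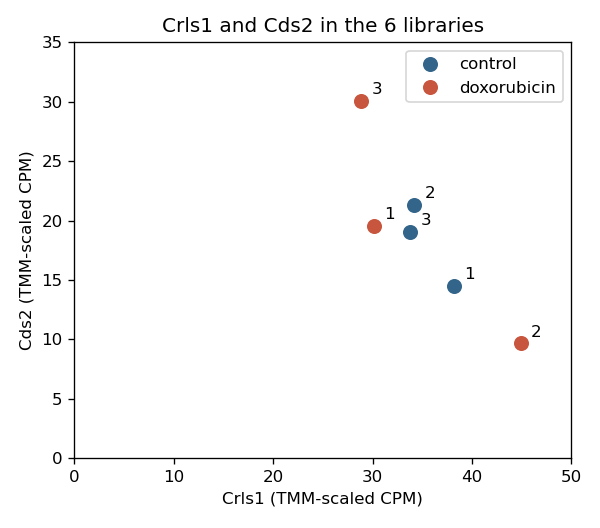
Level of Cds2 (y axis) against Crls1 (x axis), both in CPM from 0, in the 6 libraries, numbered by replicate within control (blue) and doxorubicin (red). Doxorubicin library 2 lies at the lower right (44.9 and 9.67 CPM) and doxorubicin library 3 at the upper left (28.9 and 30.1 CPM), with the control libraries between.

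Genes whose log2 CPM followed each of the 5 most closely over the 6 libraries were named as a description. For Tamm41, 25 other tested symbols had Pearson's r above 0.95, among them Dnpep, an aspartyl aminopeptidase (r = 0.98), and C1qbp, a mitochondrial matrix protein (r = 0.97). Dnpep was at 311, 251 and 204.5 CPM in control libraries 1, 2 and 3 and at 195.5, 212 and 187 CPM in doxorubicin libraries 1, 2 and 3, and thus had the same order of libraries as Tamm41. For Crls1 there were 23, led by Phb2, a prohibitin of the inner mitochondrial membrane (r = 0.99), then Plat and RT1-Db1. For Cds2 there were 19, led by Syncrip, Snrk and Mrpl51 (r = 0.99, 0.99 and 0.98). For Ptpmt1 there were 17, led by Smpd1, the lysosomal sphingomyelinase (r = 0.98), and for Plscr3 there were 53, led by Ap4s1 (r = 0.997). With only 6 libraries, 17 to 53 symbols thus passed that r for each gene, and nothing is read from them.

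A sum over 17 chosen marker genes gave a second scale for the same genes. Atp5f1b, Slc25a4 and Atp5f1a had the highest control means of the 17, at 11560, 9146 and 8378 CPM, and so weigh most in it. The 17 markers of mitochondrial content, among them Cs, Vdac1 and respiratory subunits, summed to 47510 ± 4044 (control) and 40600 ± 2687 CPM (doxorubicin; SD, n = 3). Their sums did not overlap between groups (2-sided exact permutation p = 0.1, the smallest that 3 against 3 can give). Of the 17, 0 passed the adjusted threshold and 3 had an unadjusted p under 0.05 by edgeR, against 0.0543% and 8.1% of all symbols. There were 15 below control, against 47.9% of all symbols, with a median log2 fold change of -0.23, and 7 with separate groups, against 13.4%. Per 100000 counts of these markers, Tamm41 was at 27.7 ± 7.09 in control and 20.8 ± 1.49 in doxorubicin hearts. Crls1 was at 74.6 ± 1.24 in control hearts (SD, n = 3), and at 72.1, 105.9 and 77.0 in doxorubicin hearts 1, 2 and 3. The control spread of Crls1 on this scale was also narrower than its counting error of 9.74%. The control and doxorubicin means were 57.5 ± 16.1 and 54.8 ± 18.2 for Ptpmt1 and 125 ± 19.2 and 136 ± 14.2 for Plscr3 on this scale (SD, n = 3). Cds2 was at 27.8, 47.1 and 42.2 in control hearts 1, 2 and 3 and at 46.8, 22.8 and 80.1 in doxorubicin hearts 1, 2 and 3, again with the doxorubicin values on both sides of the control values. The groups overlapped for all 5, as they did in CPM.

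Genes around the pathway were described from 5 lists with 54 symbols, of which 45 were tested. With edgeR's quasi-likelihood test 0 of the 45 passed the adjusted threshold and 1 had an unadjusted p under 0.05, against 0.0543% and 8.1% of all symbols. DESeq2 also called 0, with 1 at an unadjusted p under 0.05. Separate groups were seen for 6 of the 45, 5 of them lower in doxorubicin, against 13.4% of all symbols. The median log2 fold change was -0.12.

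Phosphatidic acid is the starting lipid. Of 12 tested genes for its supply, earlier steps included, or its use, 7 were below control, with a median log2 fold change of -0.23. Agpat3, an acyltransferase that makes phosphatidic acid, was the gene with the unadjusted p under 0.05: 156, 127 and 113 CPM in control libraries 1, 2 and 3 against 73.2, 113 and 84.0 CPM in doxorubicin libraries 1, 2 and 3. Its log2 fold change was -0.55 (SE 0.21), with an unadjusted p of 0.0185 and an adjusted p of 0.482 in edgeR's test. Agpat2, of the same family, had control and doxorubicin means of 23.3 ± 6.66 and 16.1 ± 0.756 CPM (SD, n = 3). Its groups did not overlap, and its adjusted p was 0.634 in edgeR's test.

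The next list held enzymes of other phospholipid head groups and of CDP-diacylglycerol. Of 8 tested, 4 were below control and the median was -0.031. Etnk1, ethanolamine kinase, was at 51.5 to 75.1 CPM in control hearts and at 133, 64.6 and 66.0 CPM in doxorubicin libraries 1, 2 and 3, so that doxorubicin library 1 alone lay above all control hearts. Pcyt2, the next enzyme of that branch, had control and doxorubicin means of 225 ± 59.6 and 169 ± 28.6 CPM (SD, n = 3), with overlapping groups. Cds1, the other synthase of the Cds2 family, had only 3 to 14 counts per library and was not tested.

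The list for lipid transfer between mitochondrial membranes held 8 tested genes, 3 of them below control, with a median of 0.18. It counted Plscr1 and Plscr4 of the Plscr3 family, with log2 fold changes of 0.63 and 0.45. Whether these 2 act in mitochondria was not tested. Prelid1, which carries phosphatidic acid to the inner membrane together with Triap1, had control and doxorubicin means of 44.3 ± 9.99 and 33.3 ± 5.10 CPM (SD, n = 3), and its groups overlapped. Plscr1, a scramblase of the Plscr3 family, was at 5.35, 4.00 and 5.68 CPM in control libraries 1, 2 and 3 and at 9.31, 6.55 and 7.66 CPM in doxorubicin libraries 1, 2 and 3. Its groups did not overlap, and its log2 fold change of 0.63 (SE 0.38) had an adjusted p of 0.710 in edgeR's test.

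Deacylation and reacylation of cardiolipin were covered by 6 tested genes, 4 of them below control, with a median of -0.12. Acsl1, which activates fatty acids, had control and doxorubicin means of 1375 ± 186 and 1122 ± 124 CPM (SD, n = 3). Pnpla8, a mitochondrial phospholipase, was at 149 ± 24.1 and 176 ± 49.4 CPM. Both had overlapping groups. Pla2g6 had 6 counts in all libraries together and was not tested.

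Inner membrane scaffolds that hold or need cardiolipin were covered by 11 tested genes, 9 of them below control, with a median of -0.18, against -0.23 for the content markers. Chchd6, a MICOS subunit, was at 15.7, 10.2 and 8.52 CPM in control libraries 1, 2 and 3 and at 7.38, 7.18 and 7.96 CPM in doxorubicin libraries 1, 2 and 3. All doxorubicin values lay below all control values, and the adjusted p was 0.689 in edgeR's test. Chchd3, of the same complex, had control and doxorubicin means of 440 ± 13.5 and 355 ± 63.2 CPM (SD, n = 3), also without overlap, with an adjusted p of 0.701 in edgeR's test.

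**Figure D5:**
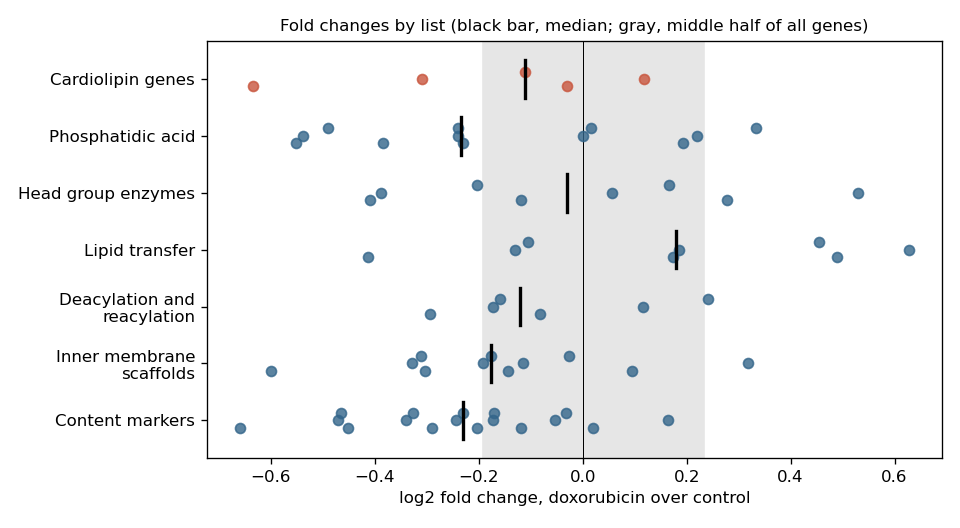
Log2 fold change of doxorubicin over control (x axis) for each tested gene of the cardiolipin genes (red) and of the 5 surrounding lists and the content markers (blue), with list medians as black bars and the quartile range of all tested symbols in gray. Medians run from -0.23 for phosphatidic acid genes and content markers to 0.18 for lipid transfer.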

How the data were processed

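Polyadenylated-RNA libraries of heart tissue, made with a Watchmaker kit per the labels' protocols, were compared between 3 doxorubicin and 3 control rats. The authors deposited raw read counts per gene row. The submitters' processing notes name FastQC, Trimmomatic, STAR, HTSeq and the build mRatBN7.2; versions, annotation, strand setting and the treatment of shared reads are not given in the sources used here.

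The 18473 rows were summed per symbol. The test was edgeR 4.0.16's quasi-likelihood F test (R 4.3.3) with intercept and treatment, TMM scaling, robust dispersion and filterByExpr (minimum count 10, minimum total 15), with p-values adjusted by Benjamini-Hochberg over the 9205 symbols tested and a threshold of 0.05. SE is the absolute log2 fold change over the square root of F, and intervals use the test's degrees of freedom. Log2 CPM used a prior count of 2. A floor of 3 counts is 0.855 to 1.35 CPM. The scripts were tested on simulated data. Replicates of a group differed by more than sampling noise (chi-square per degree of freedom 4.33 to 15.7). RefSeq's GRCr8 list matched 98.0% of symbols, including older ones.

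The members and lists were chosen with earlier results of these data known. From each list, genes past the threshold and the 2 with the lowest unadjusted p were named, all tested members, and, for each, up to 3 symbols with r above 0.95. The result for 1 symbol is not reported here by name. Any other gene was named after its values were seen. Alternatives were median-of-ratios and upper-quartile factors, library size only, no filter, mean CPM of at least 5, DESeq2 1.42.0, limma 3.58.1 voom, the replicate number as a block, each library left out, rows kept separate, and, added after seeing the data, scaling to the 17 content markers. The numbers of same-numbered libraries are not paired by the labels.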

Additional observations from a re-analysis of the deposited data

How the results depend on the processing

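Under the 16 alternatives, 0 of 5 cardiolipin genes and 0 of the surrounding genes passed the adjusted threshold, and the lowest adjusted p of a cardiolipin gene was 0.574, for Tamm41 scaled to content markers. Tamm41 (-0.88 to -0.40) and Ptpmt1 (-0.56 to -0.028) were below 0 in all 16. Crls1 turned sign with library size only (0.058), scaling to content markers (0.19) and without control library 1 (0.032) or doxorubicin library 1 (0.065) or 3 (0.096). Plscr3 turned sign with content markers (0.12) and without control library 1 (0.10). Cds2 turned sign with voom (-0.005) and without control library 1 (-0.015) or doxorubicin library 3 (-0.31). With 1 library left out, Crls1 ran from -0.25 to 0.096, Plscr3 from -0.22 to 0.10 and Cds2 from -0.31 to 0.45. Scaling to content markers moved the median of all symbols from 0.017 to 0.24, so its values of 0.19 and 0.12 were below that median. With library size only the median of all symbols was 0.101, above the 0.058 of Crls1. The cause of the other turns was not tested. Over all symbols, 5 passed in the main setting, 0 with library size only, 61 with no filter, 1 at a mean CPM of at least 5, 74 with DESeq2, 0 with voom, 0 with content markers, and 0 to 35 when 1 library was left out (35 without doxorubicin library 2); where 0 passed, 531 to 1113 had an unadjusted p under 0.05. With the replicate block 13 passed, among them 0 of the cardiolipin genes, and same-numbered libraries did not deviate together (r = 0.021, -0.185 and -0.056 for pairs 1, 2 and 3). At 25 to 206 counts per library for the 5 genes, counting error of 7.60% to 17.8% limits what can be detected. So does the spread between 3 animals per group. edgeR's coefficient of variation beyond counting error was 0.188 to 0.288 as a fraction, larger than the counting error for each of the 5 genes.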
